A study of Mus musculus with 4 samples.

Results

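The EGF receptor gene Egfr and the gene of its inhibitor, Errfi1, were examined in a profile of N6-methyladenosine (m6A) in mouse liver RNA. Every row of the peak table that overlapped either gene was taken, which gave 5 of 12815 distinct peaks, 3 in Egfr and 2 in Errfi1. The pair was chosen from these same libraries, with their values known, so what follows describes them and carries no test. HKO mice were Mettl3 flox/flox with the Alb-Cre transgene, which deletes Mettl3, the catalytic subunit of the m6A writer, in hepatocytes. Their controls were Mettl3 flox/flox mice without Cre, called flox here. Both had the C57BL/6 background, ate normal chow and were 8 weeks old. The albumin promoter drives the Cre, so the deletion is aimed at hepatocytes, and Mettl3 in the other cells of the liver was not checked. Poly(A)+ RNA pooled from several mice of a genotype was fragmented and precipitated with an antibody to m6A. There were 4 libraries, 1 precipitated (IP) and 1 input library per genotype, so no difference has a replicate check.

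Egfr is a receptor tyrosine kinase of the hepatocyte surface that binds EGF, TGF-alpha and related ligands. The bound receptor recruits adaptors such as Grb2, which couple it to RAS and the ERK kinases, and it drives hepatocyte growth in the regenerating liver. Errfi1, also called Mig-6, is a cytoplasmic protein that binds the active kinase domain of the receptor, blocks it and promotes its uptake and degradation. Errfi1 is itself induced by growth factors and by stress, so the pair forms a feedback loop. In mRNA, m6A lies mostly in GGAC contexts, many of them GGACT, and is densest near stop codons and in long last exons. In an IP library, reads pile up around methylated sites, while the input library gives the level of the RNA under the same peak.

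The libraries held between 14972301 and 18365473 reads, of which 39.4% in HKO IP and 46.5% in flox IP lay in peaks, against 20.4% in HKO input and 19.98% in flox input. Levels are given in RPM, the reads of a peak plus 1 scaled to the library total, and 3 reads, the most that a count of 0 allows, came to between 0.163 and 0.200 RPM. Enrichment is the IP RPM over the input RPM of the same genotype. Intervals are 95% intervals of read counting alone. They do not cover mice, pools or libraries, and reads may include PCR copies. No peak overlapped Mettl3 in the table, so the deletion was not checked against it. Every peak in the table had more RPM in IP than in input in either genotype.

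All positions are on GRCm38 and come from the table and from GENCODE vM21 transcripts of that build. Egfr (ENSMUSG00000020122) lies on the + strand of chromosome 11. Its transcript Egfr-201 runs from 16752211 to 16918158 and has 28 exons, of which the last is 6665 nt long and holds a 3' UTR of 6303 nt. Egfr peak 1, at chr11:16911600-16912394, spans the stop codon, with its middle 144 nt past the first base of that codon. Egfr peak 2, at chr11:16915913-16916152, and Egfr peak 3, at chr11:16917103-16917457, lie in the distal 3' UTR, with middles 4179 and 5427 nt past the stop codon. The RefSeq gene ends at 16913907, which is 4251 nt before the GENCODE end, so both distal peaks lie on sequence that only the longer GENCODE model includes. Errfi1 (ENSMUSG00000028967) lies on the + strand of chromosome 4, and its transcript Errfi1-201 runs from 150855073 to 150868887 with 4 exons. Errfi1 peak 1, at chr4:150855080-150855273, covers the 5' UTR in the first exon, with its middle 103 nt from the transcript start. Errfi1 peak 2, at chr4:150866320-150867799, covers 1480 nt of the last exon, from coding sequence through the stop codon into the 3' UTR.

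The sites below are shown because GGACT, the commonest m6A context, occurred in the 3 peaks with lower enrichment in HKO and in none of the others. Each line gives the sense strand of the transcript, 5′ to 3′, with the GGACT in capitals and 10 bases on either side. Only the sense strand was searched, since m6A is read on the RNA.
Egfr peak 1, coding sequence, chr11:16911734-16911758, + strand: actaccagcaGGACTtcttccccaa
Egfr peak 1, 3' UTR, chr11:16911880-16911904, + strand: taaaatgtctGGACTttctagaatc
Egfr peak 2, 3' UTR, chr11:16916047-16916071, + strand: aagaagctgtGGACTctggggcaat
Errfi1 peak 2, 3' UTR, chr4:150867595-150867619, + strand: tgaagttggtGGACTccgccttaat
The A of the first site lies 107 nt before the Egfr stop codon and that of the second 39 nt past it. The second A lies 16 nt from the nearer of the 2 summits that the table gives for Egfr peak 1. The A in Egfr peak 2 lies 4206 nt past the stop codon and 29 nt past the summit of its peak, and the A in Errfi1 lies 107 nt past the Errfi1 stop codon and 77 nt from the nearest of 5 summits.

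Motif counts depend on length, so each peak was set beside the peaks of 0.8 to 1.25 times its length, out of 11585 that could be placed on unbroken transcript sequence. Of those 11585 peaks, 38.3% held GGACT and 75.8% held GGAC, the 4 bases with which GGACT begins. Egfr peak 1 held 2 GGACT, and 71.6% of 891 peaks of like length held at least 1. Egfr peak 2 held 1, against 29.7% of 4240 peaks of like length. Errfi1 peak 2 held 1 in its 1480 nt, which is 0.676 per kb against 1.63 per kb over all placed peaks, while 81.1% of 169 peaks of like length held at least 1. So the Errfi1 peak was sparse in this motif for its size.

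Egfr peak 3 and Errfi1 peak 1 differed from these in sequence, and a stretch of each is shown for that reason. Egfr peak 3 held neither GGACT nor GGAC, whereas 46.7% and 86.0% of 2651 peaks of like length held them. It was rich in CA repeats instead: CA or AC made up 33.9% of its dinucleotide steps against a median of 12.9% over placed peaks, above 99.9% of them. Its longest repeat is in capitals in the first line below. Errfi1 peak 1 held no GGACT, and its GC content was 74.0% against a median of 52.4%. It held 2 GGAC that lie head to tail between the 2 summits of the peak, each in capitals in a line of its own below, where 65.1% of 3811 peaks of like length held at least 1 GGAC.
Egfr peak 3, CA repeat, chr11:16917405-16917434, + strand: tctctctCACACACACACACACtacacact
Errfi1 peak 1, first GGAC, chr4:150855216-150855239, + strand: gagccagccgGGACggacatgcgc
Errfi1 peak 1, second GGAC, chr4:150855220-150855243, + strand: cagccgggacGGACatgcgcggga
A match is a description of the letters under a peak and not a measured site of methylation.

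Egfr was lower in HKO liver in both fractions at every one of its peaks. At Egfr peak 1, over the stop codon, the IP level was 41.1 RPM (707 reads) in HKO and 409 RPM (7280 reads) in flox, which was 9.96-fold lower in HKO (log2 -3.32, -3.43 to -3.21). The input level there was 14.0 RPM (256 reads) in HKO and 66.5 RPM (994 reads) in flox, 4.75-fold lower in HKO (log2 -2.25, -2.45 to -2.05). This was the strongest Egfr peak in all 4 libraries. It stood at rank 116 of all peaks by reads in flox IP, but at rank 1796 in HKO IP.

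The distal peaks showed the same lower input with fewer reads behind it. At Egfr peak 2 the IP level was 1.91 RPM (32 reads) in HKO and 24.0 RPM (426 reads) in flox, and the input level was 1.69 RPM (30 reads) in HKO and 9.08 RPM (135 reads) in flox. These were 12.5-fold and 5.38-fold lower in HKO (log2 -3.65, -4.16 to -3.14, and -2.43, -2.99 to -1.87). Egfr peak 2 was called in flox alone, and Egfr peak 1 in both genotypes.

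Egfr peak 3, called in HKO alone, was the exception in its balance of IP and input. Its IP level was 6.91 RPM (118 reads) in HKO and 26.4 RPM (469 reads) in flox, 3.83-fold lower in HKO (log2 -1.94, -2.23 to -1.65). Its input level was 2.45 RPM (44 reads) in HKO and 23.7 RPM (354 reads) in flox, 9.68-fold lower in HKO (log2 -3.27, -3.72 to -2.83). The peak called only in HKO was thus a place where the IP level was lower in HKO too, by less than the input. Over all peaks the table marked 5917 as called in both genotypes, 4016 in HKO alone and 2882 in flox alone.

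Errfi1 was more abundant in HKO input and its main peak was lower in HKO IP. At Errfi1 peak 2, over the last exon, the IP level was 1730 RPM (29804 reads) in HKO and 2915 RPM (51833 reads) in flox, 1.69-fold lower in HKO (log2 -0.75, -0.77 to -0.73). The input level was 1493 RPM (27420 reads) in HKO and 998 RPM (14942 reads) in flox, a log2 change of 0.58 (0.55 to 0.61). By reads it was one of the most abundant peaks in both fractions, at rank 10 in HKO IP and rank 9 in flox IP, and at rank 9 in HKO input and rank 16 in flox input, with 0.173% of all reads of the HKO IP library and 0.291% of the flox IP library.

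At Errfi1 peak 1, in the 5' UTR, both fractions were higher in HKO. The IP level was 277 RPM (4781 reads) in HKO and 176 RPM (3123 reads) in flox, a log2 change of 0.66 (0.59 to 0.72). The input level was 215 RPM (3954 reads) in HKO and 132 RPM (1974 reads) in flox, 1.63-fold higher in HKO (log2 0.71, 0.63 to 0.79). Both Errfi1 peaks were called in both genotypes.

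**Figure D1:**
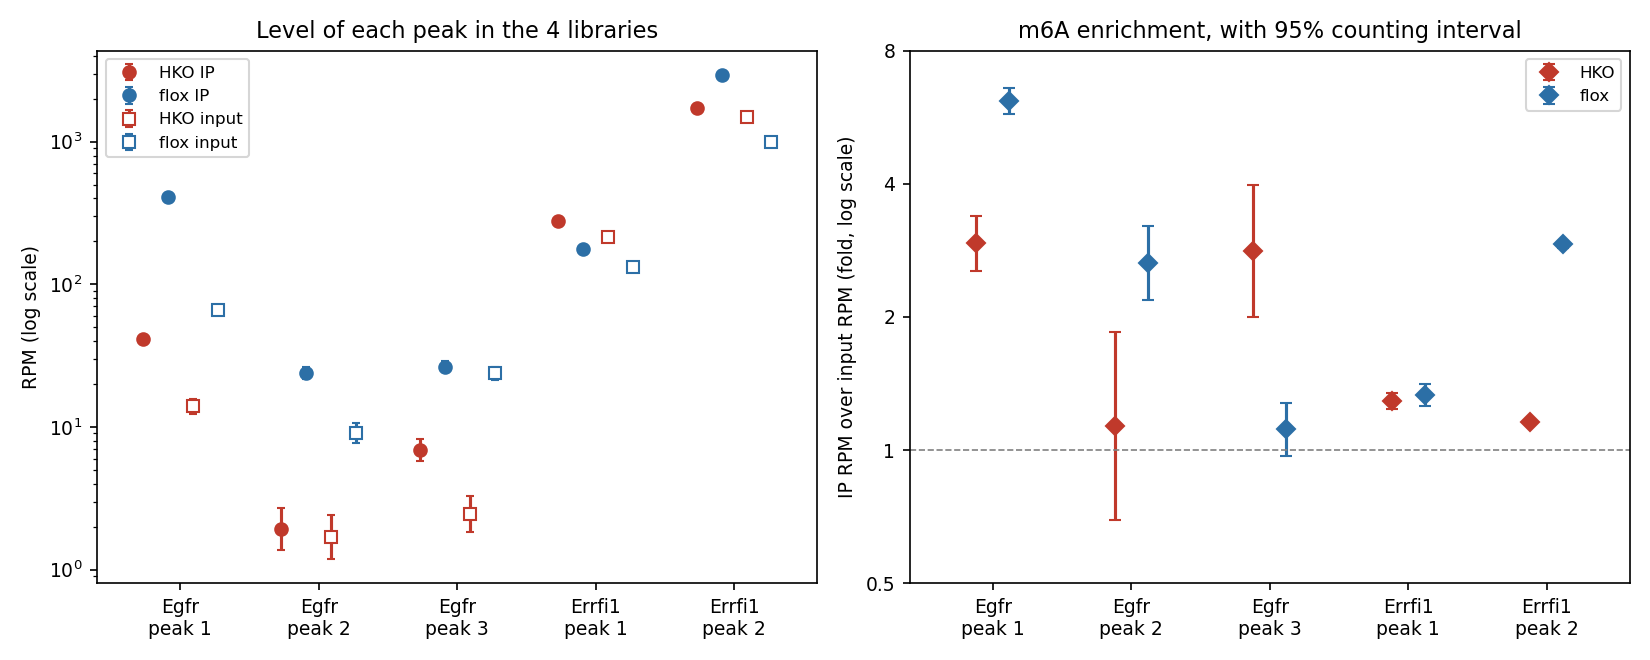
Left, RPM of the 5 peaks on a log axis in the 4 libraries, circles for IP and open squares for input, HKO in red and flox in blue; right, IP RPM over input RPM on a log axis with the 95% counting interval and a dashed line at 1. All 3 Egfr peaks are lower in HKO in both fractions, and enrichment is lower in HKO at Egfr peaks 1 and 2 and Errfi1 peak 2, higher at Egfr peak 3 and close at Errfi1 peak 1.

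With the input taken into account, m6A enrichment was lower in HKO at 3 of the 5 peaks. Egfr peak 1 was enriched 2.94-fold in HKO (2.55 to 3.39) and 6.16-fold in flox (5.77 to 6.58), a log2 change of -1.07 (-1.30 to -0.84). Egfr peak 2 was enriched 1.13-fold in HKO (0.695 to 1.85) and 2.64-fold in flox (2.18 to 3.21), a log2 change of -1.22 (-1.98 to -0.46). In HKO the interval of Egfr peak 2 reached below 1, so at 32 and 30 reads an enrichment was not detectable there. Errfi1 peak 2 was enriched 1.16-fold in HKO (1.14 to 1.18) and 2.92-fold in flox (2.87 to 2.97), a log2 change of -1.33 (-1.37 to -1.30), which is 2.52-fold lower.

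These 3 peaks did not end at one level in HKO. Both Errfi1 peak 2 and Egfr peak 2 were near an enrichment of 1 there, whereas Egfr peak 1 had an enrichment above the median of 2.31 over all peaks in HKO. The corresponding median over all peaks in flox was 2.84. The A of the 3' UTR site in Egfr peak 1 is the nearest to a summit among the 4 GGACT sites printed above. A GGAC not followed by T lies nearer still in that peak, with its A 2 nt past a summit. Whether distance to a summit bears on the level in HKO was not tested.

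The other 2 peaks did not share the lower enrichment. Egfr peak 3 was enriched 2.82-fold in HKO (2.0 to 3.97) and 1.11-fold in flox (0.971 to 1.28), a log2 change of 1.34 (0.80 to 1.87) and higher than the change of 97.7% of all peaks. This is the peak with no GGAC. It was called in HKO alone and Egfr peak 2 in flox alone, so the direction of either change was partly set by the calling. Errfi1 peak 1 was enriched 1.29-fold in HKO (1.24 to 1.34) and 1.33-fold in flox (1.26 to 1.41), a log2 change of -0.05 (-0.15 to 0.05) whose interval includes 0.

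Over all 12815 peaks, 24.3% had enrichment lower in HKO by 2-fold or more and 6.25% had it higher by as much, with a median log2 change of -0.04 and quartiles of -0.98 and 0.51. By this rule of size, 3 of the 5 peaks were lower and 1 was higher, but the pair was chosen from these libraries and nothing is read from that count. The change at Egfr peak 1 lies close to the limit of 2-fold. With each library scaled by its reads in peaks in place of all its reads, the enrichment changes of all peaks shifted by a median of 0.27, and those of Egfr peaks 1 and 2 became -0.80 and -0.95, short of 2-fold. With size factors Egfr peak 1 came to -0.97, also short of it.

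Within each gene the peaks could be compared on the same RNA pool, since library totals cancel between peaks of 1 gene. The log2 enrichment changes of Egfr peaks 2 and 1 differed by -0.15 (-0.94 to 0.64), within counting error. Egfr peak 3 differed from Egfr peak 1 by 2.41 (1.83 to 2.99) and from Egfr peak 2 by 2.56 (1.63 to 3.49). Errfi1 peak 2 differed from Errfi1 peak 1 by -1.29 (-1.39 to -1.18). So in both genes some peaks had enrichment changes apart by more than read counting gives, whichever total was used to scale the libraries. For Egfr this rests on Egfr peak 3, which was called in HKO alone. The distal Egfr peaks may lie on fewer of the Egfr RNAs than Egfr peak 1 does, since the shorter gene model lacks them, but this was not tested.

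The split between Egfr peak 3 and the rest of the gene came from both fractions. Its input was lower in HKO by more than that of Egfr peak 1 (difference -1.03, -1.52 to -0.54, log2) and its IP by less (difference 1.38, 1.07 to 1.69). Egfr peak 3 held 13.3% of the Egfr input reads in HKO (exact Clopper-Pearson 95% interval 9.86 to 17.5) and 23.9% in flox (21.7 to 26.1). It held 13.8% of the Egfr IP reads in HKO (11.5 to 16.3) and 5.74% in flox (5.24 to 6.26). In HKO its share was thus about the same in IP as in input, while in flox it was smaller in IP than in input.

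Egfr peak 1 gave the mirror image of this. It held 82.5% of the Egfr IP reads in HKO (79.8 to 85.0) and 89.1% in flox (88.4 to 89.7), against 77.6% of the Egfr input reads in HKO (72.7 to 82.0) and 67.0% in flox (64.6 to 69.4). The excess of the stop codon peak in IP over input was therefore smaller in HKO. For Errfi1, the last-exon peak held 86.2% of the IP reads in HKO and 94.3% in flox, against 87.4% of the input reads in HKO and 88.3% in flox. In HKO the Errfi1 reads were thus spread over its peaks in IP nearly as in input.

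**Figure D2:**
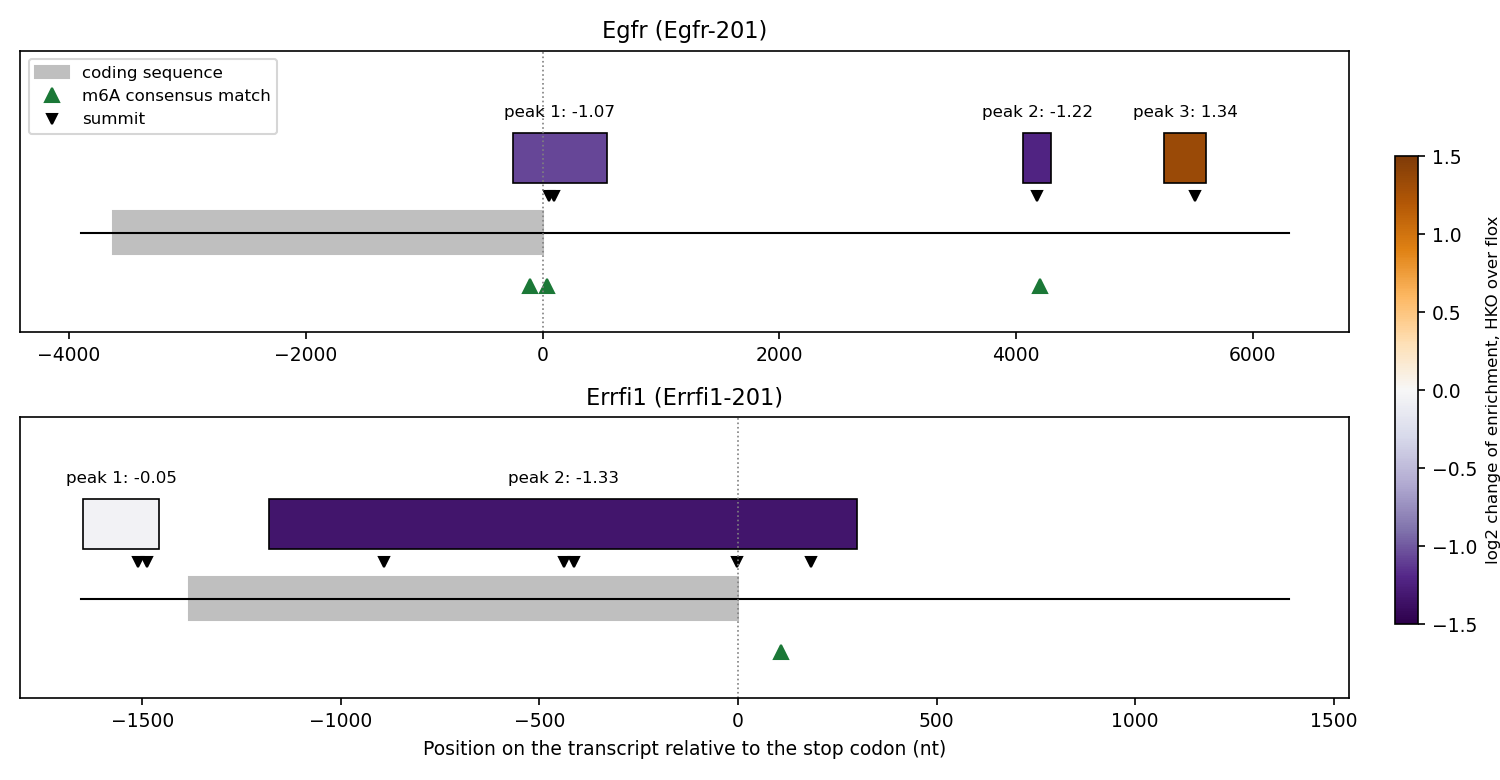
The 5 peaks on Egfr-201 and Errfi1-201, with position in nt from the stop codon on the x axis, grey for coding sequence, boxes for peaks coloured and labelled by the log2 enrichment change of HKO over flox, triangles below for GGACT and above for summits. The 3 boxes with a GGACT below them read -1.07, -1.22 and -1.33, and the 2 without read 1.34 and -0.05.

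Position on the transcript went with the size of the change across the table, and the 5 peaks can be read against it. Peaks within 200 nt of a stop codon (2639) had a median log2 enrichment change of -0.82, with quartiles of -1.41 and -0.03, so Egfr peak 1 at -1.07 lay inside the middle range of its class. The 3' UTR peaks further from the stop codon (1830) had a median of -0.69, and 37.2% of them were at least 2-fold lower. Only 41 of those lay more than 4000 nt past the stop codon, as Egfr peaks 2 and 3 do. Their median was -0.31, with 24.4% at least 2-fold lower and 7.32% at least 2-fold higher.

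Both Errfi1 peaks fell on the lower side of the classes that their middles gave them. Errfi1 peak 2 has its middle in coding sequence, where 5545 peaks had a median change of 0.01, although 2 of its 5 summits lie within 200 nt of the stop codon, 3 nt before it and 184 nt past it. Its change of -1.33 was lower than that median. It lay inside the quartiles of the peaks within 200 nt of a stop codon, -1.41 and -0.03. Errfi1 peak 1 lies within 200 nt of a transcript start, where 1962 peaks had a median of 0.46 and 1.63% were at least 2-fold lower. Its change of -0.05 was lower than the first quartile of that class, 0.16.

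The lower input of Egfr was large against the rest of the table. Of all peaks, 5.06% had input lower in HKO by 2-fold or more and 14.6% had it higher by as much, with a median log2 change of 0.22 and quartiles of -0.21 and 0.69. Egfr peaks 3, 2 and 1 stood at ranks 65, 103 and 131 from the lowest of 12815. In bulk liver, fewer cells that express a gene and less RNA per cell cannot be told apart. Scaled by size factors, the input changes of all peaks shifted by a median of -0.23, and Egfr peak 1 came to -2.48.

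Summed over its 3 peaks, Egfr had 18.0 RPM in HKO input (330 reads) and 99.0 RPM in flox input (1483 reads), 5.51-fold lower in HKO (log2 -2.46, -2.63 to -2.29). In IP it had 49.7 RPM in HKO (857 reads) and 460 RPM in flox (8175 reads), 9.24-fold lower in HKO (log2 -3.21, -3.31 to -3.11). Without Egfr peak 1 the input change was -3.02, and without Egfr peak 3 it was -2.28, so the lower Egfr input did not rest on a single region of the RNA. Summed over its 2 peaks, Errfi1 had 1708 RPM in HKO input (31374 reads) and 1130 RPM in flox input (16916 reads), 1.51-fold higher in HKO (log2 0.60, 0.57 to 0.62). Its summed IP level was 1.54-fold lower in HKO (log2 -0.62, -0.64 to -0.60).

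The ratio of inhibitor to receptor RNA shifted accordingly. Per kb of peak sequence, Errfi1 had 1020.5 RPM in HKO input and Egfr 12.9 RPM, a ratio of 78.9. In flox input Errfi1 had 675 RPM per kb and Egfr 71.3 RPM per kb, a ratio of 9.47. The same ratio was 33.5 in HKO IP and 5.58 in flox IP. A ratio within 1 library does not depend on how the library was scaled, and most of the shift in input came from Egfr.

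**Figure D3:**
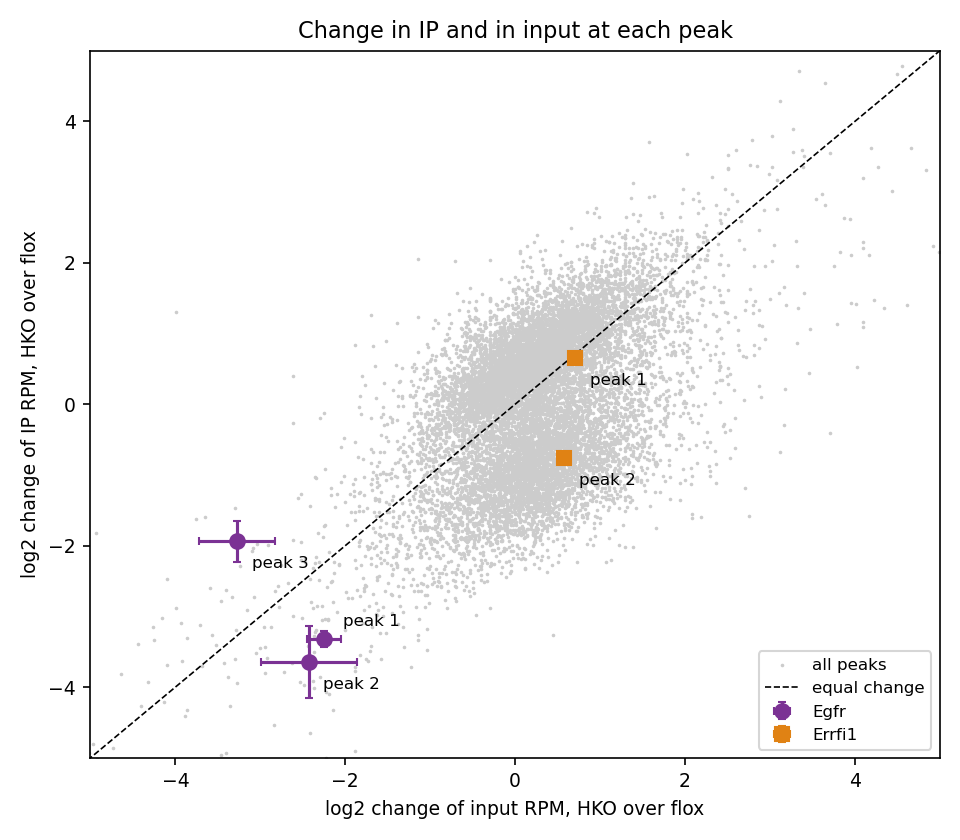
Log2 change of input RPM on the x axis and of IP RPM on the y axis, both HKO over flox, for all peaks (grey), Egfr (purple circles) and Errfi1 (orange squares) with 95% counting intervals; on the dashed line enrichment is the same in both genotypes, and 32 peaks lie outside the plotted range of 5 on either axis. The Egfr peaks sit far to the left, peaks 1 and 2 below the line and peak 3 above it, while Errfi1 peak 1 is on the line and Errfi1 peak 2 below it.

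Other RNAs that bear on the cells and the handling of the tissue also differed between the pools, and their part in the Egfr and Errfi1 values was not tested. Of 8 hepatocyte markers 5 had a peak, with a summed input level of 7042 RPM in HKO and 7164 RPM in flox and a median log2 input change of -0.37. Of 7 Kupffer cell and macrophage markers 6 had a peak, at 439 RPM in HKO and 257 RPM in flox. Endothelial markers (5 of 7) came to 86.1 RPM in HKO and 119 RPM in flox, stellate markers (5 of 7) to 38.3 RPM in HKO and 23.9 RPM in flox, and cholangiocyte markers (2 of 5) to 35.6 RPM in HKO and 13.02 RPM in flox. The log2 input changes of the 5 hepatocyte markers lay between -0.56 and 0.01, which describes these 5 genes only. Albumin (Alb) had 4872 input reads in HKO and 5412 in flox, a log2 change of -0.45 once scaled to library totals. Cps1, Serpina1a and Tf had no peak, nor had Adgre1, Stab1, Stab2, Des, Reln, Epcam, Krt19 and Krt7 among the markers of the other cells.

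The immediate-early genes, which respond within minutes to growth factors, stress and handling, differed in the direction of Errfi1. Of 9 listed 7 had a peak, and all 7 passed the 2-fold limit towards higher input in HKO, as 14% of all genes with a peak did, with a summed level of 2110 RPM in HKO and 363 RPM in flox and log2 changes of 1.38 to 6.14. All 7 also passed it towards lower enrichment, the direction of Errfi1 peak 2, as 30.2% of all genes did. Enrichment is divided by input, so higher input alone lowers it, and these 2 counts are not independent. Of 6 male-biased liver genes 4 had a peak, and input of 3 of these was lower in HKO by 2-fold or more, as it was in 4.77% of all genes, with a summed level of 274 RPM in HKO and 2180 RPM in flox. Of 6 female-biased genes 2 had a peak, at a summed 293 RPM in HKO and 104 RPM in flox. These 2 differed in direction, with log2 input changes of 1.51 for Cyp4a14 and -0.45 for Cux2. Egfr shared the direction of the male-biased genes. The labels give no sex, and genotype cannot be told apart from pool, handling or sex with 1 pool per genotype.

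The other genes of the EGF receptor pathway were followed in 6 lists by role, 66 genes in all, of which 46 had a peak. Each gene has the value of its peak with the most IP reads. In 20 of the 46 (43.5%) enrichment in HKO was lower by 2-fold or more, and in 0 it was higher by as much, with a median log2 change of -0.78. Over all 7821 genes with a peak, 30.2% were lower and 4.28% higher, with a median of -0.30. Input was lower by 2-fold or more in 0 of the 46 and higher in 8, against 4.77% lower and 14% higher over all genes. The median log2 input change was 0.49 in the lists and 0.20 over all genes. The lowest input change among the 46 was -0.59, while the strongest peak of Egfr stood at rank 70 of 7821 genes from the lowest. Few genes lie that low, and 0 of 46 is not far from the 4.77% of all genes, so nothing is read from that count. With size factors 4 of the 46 were at least 2-fold higher in input.

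Among ligands and the proteins that release them, 3 of 11 had a peak. Adam17, the main sheddase of EGF receptor ligands, had 84 input reads in HKO and 62 in flox and an enrichment change of -0.18 (-0.71 to 0.36). Adam10, another sheddase, changed by -1.12 (-1.81 to -0.42). Rhbdf2, which carries Adam17 to the cell surface, was enriched 1.12-fold in HKO and 3.63-fold in flox, a log2 change of -1.69 (-2.14 to -1.24). The ligands Egf, Tgfa, Hbegf, Areg, Ereg, Btc and Epgn had no peak, and neither had the receptors of the same family, Erbb2, Erbb3 and Erbb4, so their levels were not read.

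Adaptors and effectors of the receptor had the most lower enrichment, 7 of the 10 with a peak (70%), against 30.2% of all genes. Crk, an adaptor that links receptors to small GTPases, was enriched 1.20-fold in HKO and 4.01-fold in flox (log2 -1.74, -1.93 to -1.54). Nck1, an adaptor to the cytoskeleton, was enriched 2.23-fold in HKO and 11.4-fold in flox (log2 -2.35, -2.79 to -1.90), with an input change of 1.39. Sos1, the exchange factor that loads RAS, changed by -1.72 (-2.11 to -1.33). Grb2, which joins Sos1 to the receptor, changed by -0.87 (-1.14 to -0.60) and did not reach 2-fold.

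The RAS-ERK cascade was divided. Of 8 genes with a peak, 3 (37.5%) had at least 2-fold lower enrichment, not far from the 30.2% of all genes. Among these, Hras, a RAS protein, was enriched 2.41-fold in HKO and 7.64-fold in flox (log2 -1.67, -1.90 to -1.43). Shoc2, a scaffold protein of this cascade, was enriched 2.03-fold in HKO and 5.09-fold in flox (log2 -1.32, -1.70 to -0.95), with an input change of 1.16. The median of the list was 0.02, and its highest value was 0.42.

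The list of inhibitors, to which Errfi1 belongs by role but in which it was not counted, had a peak in all 15 of its genes. Beside the genes with the most IP reads, the members that passed the 2-fold limit and those that respond to ERK are named here, chosen after their values were seen. Lrig1, Lrig2 and Lrig3 are membrane proteins, of which Lrig1 is known to promote breakdown of the receptor. Enrichment was at least 2-fold lower in 5 of the 15 (33.3%), near the 30.2% of all genes. These were Lrig1, Lrig2 and Lrig3, at -1.25, -1.06 and -2.14, and Socs4 and Socs5, suppressors of cytokine signalling, at -1.81 and -1.96. The interval of Lrig2 reached 0.02. The inhibitors with the most IP reads were not among them: Spry1 had -0.27 (-0.60 to 0.06), Ptpn12, a tyrosine phosphatase, -0.70 (-0.98 to -0.43), Nf1, which switches RAS off, 0.62 (0.05 to 1.20), and Dusp6, the ERK phosphatase, 0.36 (0.03 to 0.69).

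Dusp6 had 507 input reads in HKO and 158 in flox, a log2 input change of 1.38 (1.12 to 1.64). Spry1 had 284 input reads in HKO and 121 in flox, a change of 0.93 (0.62 to 1.24). Both genes are transcribed in response to ERK activity, as Errfi1 is, and so are Spry2 and Spry4. Spry2 had 18 input reads in HKO and 6 in flox, a change of 1.15 (-0.10 to 2.40). Spry4 had 55 in HKO and 60 in flox, a change of -0.42 (-0.94 to 0.11). The intervals of Spry2 and Spry4 both include 0, so neither has a clear direction. Over the whole list of inhibitors 4 of 15 (26.7%) were at least 2-fold higher in input, against 14% of all genes. The median change was 0.54, against 0.20 over all genes.

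Among the genes of receptor uptake and degradation 10 of 14 had a peak. Of these, 3 (30%) had at least 2-fold lower enrichment, near the 30.2% of all genes. The lowest value in any of the lists was that of Stam, a sorting protein of the endosome, at -2.80 (-3.32 to -2.29), with 1.09-fold enrichment in HKO and 7.61-fold in flox. Stam was singled out after its value was seen. Rab7 and Rab5a, GTPases of late and early endosomes, had 0.45 (0.27 to 0.64) and -0.25 (-0.64 to 0.15). Epn1, a clathrin adaptor, had 0.55 (0.32 to 0.78), and Usp8, which removes ubiquitin from the receptor, had 0.27 (-0.01 to 0.55).

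**Figure D4:**
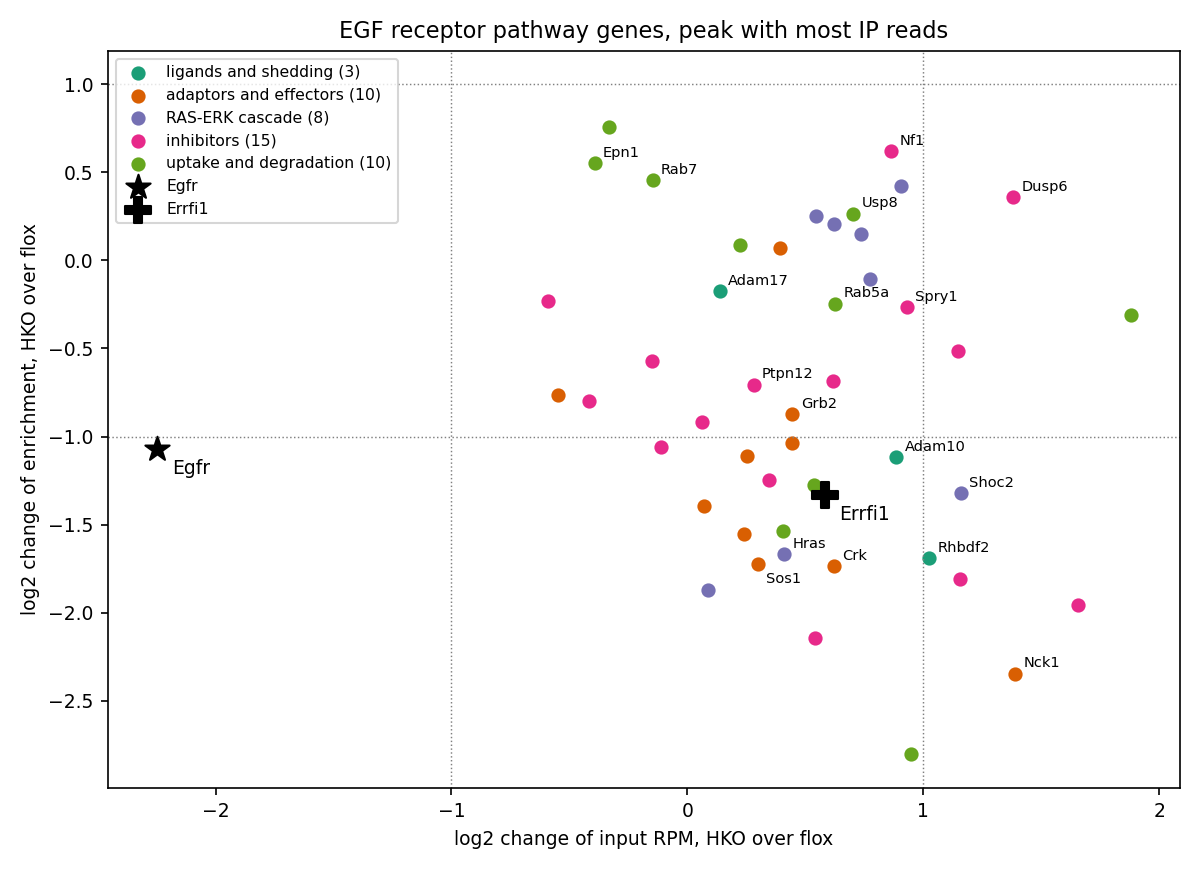
Log2 change of input RPM on the x axis and of enrichment on the y axis, both HKO over flox, for the 46 pathway genes coloured by role list, with Egfr (star) and Errfi1 (cross) and dotted lines at the 2-fold limits. Egfr lies alone at the left, at an input change of -2.25, and Errfi1 lies among the genes with lower enrichment and input above 0. Input enters both axes.

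The genes with the most similar pattern to each member were found by the distance between log2 RPM profiles over the 4 libraries, each centred on its own mean, among 2885 genes with at least 100 reads in every library at their strongest peak. Nearest to Egfr were Adh6-ps1, an alcohol dehydrogenase pseudogene, at a distance of 0.400, Il1rap, a co-receptor of interleukin 1, at 0.498, and Il1r1, its receptor, at 0.585. Their input changes were -2.21, -1.99 and -1.82 and their enrichment changes -0.82, -0.67 and -0.89. Adh6-ps1 may share reads with the other alcohol dehydrogenase genes, so its value is uncertain. Only 8 of the 2885 genes, Egfr included, had an input change as low as that of Egfr. The limit of 100 reads also holds for HKO input, so it leaves out genes with few reads there. Over all 7821 genes with a peak, Egfr stood at rank 70 from the lowest.

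Errfi1 had much closer neighbours. Mmaa, a mitochondrial protein of vitamin B12 metabolism, lay at 0.0923, Mavs, an adaptor of antiviral signalling, at 0.100, and Mrpl45, a mitochondrial ribosomal protein, at 0.105. Their enrichment changes were -1.28, -1.23 and -1.25 and their input changes 0.61, 0.60 and 0.64. The neighbours of Errfi1 thus lay closer than those of Egfr among these genes. Since the limit of 100 reads leaves out genes with few reads in HKO input, how common either profile is was not read from this.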

How the data were processed

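m6A IP and input libraries were made from pooled liver RNA, 1 library per genotype and fraction. Per the submitters' processing notes the tools were FastQC, BWA 0.7.12-r1039, MACS2 2.1.0 and HOMER on GRCm38, while the study's methods name exomePeak, so the sources differ on the peak caller. The sources used here do not give whether counting used strand.

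The deposited table had 14395 rows for 12815 distinct peaks, merged across both genotypes. The read counts per peak were deposited by the authors without normalization. For RPM, the authors had added 1 to each count and scaled it to the library total. Their deposited fold enrichment divides IP RPM by input RPM, and marks show in which genotype a peak was called. A column with the authors' log2 change between genotypes was not used. Of the columns with values per library, 0 were left out.

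Log2 changes are HKO over flox. With 1 library per group no test was run. The 95% intervals come from the read counts plus 1, and a change of at least 2-fold was a rule of size. Peaks were placed on the principal GENCODE vM21 transcript, and motifs were searched in its sequence. Named genes were Egfr and Errfi1, up to 4 genes with the most IP reads in each role list, and 3 genes nearest in profile to each member. Lrig1, Lrig2, Lrig3, Socs4, Socs5, Spry2, Spry4 and Stam lie outside this rule and were named after their values were seen. So were the markers Alb, Cyp4a14 and Cux2 and those with no peak. Some genes that this rule names are not reported here. The members and the lists were chosen with earlier results of these data known. The calculation was tested on simulated data. Alternatives were other added counts, scalings, sizes of change, gene values, transcripts and motifs. The tools were Python 3.11.15, numpy 2.4.6, pandas 2.3.3, scipy 1.17.1 and matplotlib 3.10.9.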

Additional observations from a re-analysis of the deposited data

How the results depend on the processing

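Of 84 values recomputed under an alternative, 62 stayed within their counting error or within 1.5 times a count, 22 moved and 0 of the values past 2-fold changed sign. Scaled by reads in peaks, the enrichment change was -0.80 at Egfr peak 1, 0.22 at Errfi1 peak 1 (-0.05 by library totals, so its sign turned) and -1.06 at Errfi1 peak 2, and the input change was 0.55 at Errfi1 peak 2 and 0.57 for summed Errfi1. With size factors the enrichment change of Errfi1 peak 2 was -1.24, and relative to the median of all peaks it was -1.29. With size factors the input change was -2.48 at Egfr peak 1, 0.48 at Errfi1 peak 1, 0.35 at Errfi1 peak 2, -2.69 for summed Egfr and 0.37 for summed Errfi1, and 4 pathway genes were at least 2-fold higher in input. Summed input changed by -3.02 without Egfr peak 1, by -2.28 without Egfr peak 3 and by 0.71 without Errfi1 peak 2. At 1.5-fold, 2 pathway genes were higher in enrichment, 1 was lower in input and 20 were higher in input. With the peak of highest mean enrichment per gene, 1 pathway gene was higher in enrichment. GGAC in place of GGACT gave 2 matches in Errfi1 peak 1 and 4 in Errfi1 peak 2. The genomic sequence of whole peaks was not run, since no genome sequence of this build was used here. No paired analysis was possible because each group has 1 library. At 30 and 32 reads, Egfr peak 2 in HKO is the least precise value, and no interval covers variation between mice.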
